A study of Mus musculus with 3 samples.

Results

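Microglia were picked out of single-nucleus RNA profiles of mouse prefrontal cortex by 7 of their own genes, the complement genes *C1qa*, *C1qb* and *C1qc* and the receptor or surface genes *Csf1r*, *Cx3cr1*, *P2ry12* and *Tmem119*. A nucleus was a member when it held at least 200 genes and under 10% mitochondrial counts, had at least 3 unique molecular identifiers (UMIs, 1 per captured RNA molecule) summed over the 7 genes, and had at most 1 UMI summed over the neuronal genes *Slc17a7*, *Gad1* and *Gad2*. There were 296 members among 43463 kept nuclei, 76 of 14630 in the C57BL/6J library, 116 of 14056 in the Nav1 KO library and 104 of 14777 in the BTBR library. Counts of the 7 genes therefore chose the members, and their levels below are a description, not a finding.

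The libraries came from mice of 6 to 8 weeks of age in 3 groups, and each group is 1 library. The paper states that the C57BL/6J and Nav1 KO mice were male, and it does not describe the BTBR library. C57BL/6J mice, an inbred wild-type strain, gave a pool of tissue from 5 animals. Nav1 KO mice carried on both chromosomes a CRISPR-made deletion inside the first exon of *Nav1*, on the C57BL/6J background, and gave a pool from 4 animals. BTBR T+ Itpr3tf/J mice are an inbred strain often used as a model of autism, and the number of animals behind that library is not given in the sources used here. No treatment is given in the labels of these libraries. For the C57BL/6J and Nav1 KO libraries the paper describes a sort of nuclei stained for NeuN, a protein of neuronal nuclei. Nuclei with and without NeuN were collected in set proportions, so the share of microglia there was partly set by the sort. The labels call the cell type of all 3 libraries neurons. With 1 pooled library per group there was no replicate and no test between groups. The 95% intervals given with shares, levels and ratios are exact and cover counting error alone, not the spread between mice, preparations or libraries.

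Microglia are the resident macrophages of the brain parenchyma, and they depend on signaling through the receptor encoded by *Csf1r* for their survival. They make C1q, the recognition molecule of the classical complement pathway, which tags synapses and debris for uptake, and they sense neurons and injury through the fractalkine receptor *Cx3cr1* and the ADP receptor *P2ry12*. Transcription factors of the ETS family, PU.1 above all, set up the gene program of this lineage, and a core they bind reads GGAAGT.

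The stretch just before the start of a gene is shown here for a few of the genes the account turns on, because microglia genes were read together throughout. RefSeq promoters (GRCm38.p6, the 250 bases before the annotated start) were found for 16 of the 22 rule and identity genes, with 19 starts in all. GGAAGT, searched on both strands, was present before 10 of the 19 starts (52.6%), against 19.7% of 32851 starts of all genes, and GGAA followed after any 2 bases by GAAA, a composite of ETS and interferon regulatory factors that can overlap the core, was present before 0 of the 19, against 2.30% of all starts. A match is a match of letters and does not show binding. Of the windows that overlap no annotated exon, C1qb (chr4:136886201-136886450, minus strand) and Inpp5d (chr1:87620062-87620311, plus strand) are printed with a match, and Ctss (chr3:95526536-95526785, plus strand) and P2ry13 (chr3:59210883-59211132, minus strand) without. Each sequence runs 5′ to 3′ on the strand of its gene, and capitals mark GGAAGT or its reverse complement ACTTCC, which starts 53 bases before the start of *C1qb* and 18 bases before that of *Inpp5d*.
C1qb: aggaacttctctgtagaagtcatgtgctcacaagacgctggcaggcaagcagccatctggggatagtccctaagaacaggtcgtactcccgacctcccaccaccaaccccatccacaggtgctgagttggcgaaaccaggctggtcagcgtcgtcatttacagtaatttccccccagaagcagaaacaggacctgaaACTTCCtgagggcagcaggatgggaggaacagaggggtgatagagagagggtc
Inpp5d: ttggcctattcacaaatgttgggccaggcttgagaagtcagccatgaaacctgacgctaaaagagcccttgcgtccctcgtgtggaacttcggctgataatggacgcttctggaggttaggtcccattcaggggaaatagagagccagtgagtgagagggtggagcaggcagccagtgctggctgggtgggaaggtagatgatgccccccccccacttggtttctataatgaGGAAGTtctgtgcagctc
Ctss: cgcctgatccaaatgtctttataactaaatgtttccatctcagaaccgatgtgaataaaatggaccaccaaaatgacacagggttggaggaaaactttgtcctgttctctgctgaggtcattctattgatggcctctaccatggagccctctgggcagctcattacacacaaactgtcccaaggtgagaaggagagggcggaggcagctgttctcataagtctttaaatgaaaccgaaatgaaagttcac
P2ry13: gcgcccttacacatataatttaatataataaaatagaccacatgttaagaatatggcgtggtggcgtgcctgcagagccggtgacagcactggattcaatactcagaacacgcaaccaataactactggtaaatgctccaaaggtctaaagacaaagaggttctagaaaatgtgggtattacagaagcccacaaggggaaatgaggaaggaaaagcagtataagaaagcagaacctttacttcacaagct

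The member nuclei were shallow. They held 144628 counts in the C57BL/6J library, 243752 in the Nav1 KO library and 192706 in BTBR, of 38701384, 50962468 and 48936236 counts over all kept nuclei. The median member had 1392.5, 1209.5 and 955 UMIs in the same order, against 2074, 2754 and 2510.0 over all kept nuclei, and the deepest members had 8109, 8984 and 14212. Levels are given as CPM, the counts of a gene summed over the members of a library out of 1000000 of their counts over all genes. Mitochondrial counts were a median 0.951%, 0.903% and 0.543% of a member's counts, against 0.529%, 0.388% and 0.387% over all kept nuclei. Pairs of libraries shared between 55 and 66 kept barcodes, and 0 nuclei were members under the same barcode in 2 libraries.

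Some members also held genes of other cells, and the libraries differed in this. By rules of the same form for astrocyte, oligodendrocyte and endothelial genes, 11 C57BL/6J members, 26 Nav1 KO members and 58 BTBR members passed a second rule, and for 6, 23 and 56 of them that was the astrocyte rule, which counts *Slc1a3*. The 10% of nuclei with the highest Scrublet score in their library, a score for 2 nuclei under 1 barcode, held 2, 5 and 10 members (2.63%, 4.31% and 9.62%). Values without members of a second class are given below for the share of microglia and for some of the genes that differed between libraries. Values without the top 10% of Scrublet scores are given for some of those genes.

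Each of the 7 rule genes was present in all 3 libraries. *C1qa* (ENSMUSG00000036887, chr4:136895917-136898803, mm10), a chain of C1q, stood at 829.7 CPM in C57BL/6J microglia, 800 CPM in the Nav1 KO library and 1147 CPM in BTBR, and at 5.71, 7.45 and 15.5 CPM in all other nuclei of the same libraries. The C1q chains *C1qb* (595, 706 and 592 CPM) and *C1qc* (595, 853 and 560.4 CPM) lie beside it on chromosome 4. *Csf1r* stood at 484, 525 and 742 CPM and *Cx3cr1* at 380.3, 357 and 415 CPM. *P2ry12* stood at 269.7, 336 and 524 CPM, and *Tmem119*, a surface protein used as a microglia marker, at 159, 115 and 213 CPM. BTBR microglia were the highest for *C1qa*, *Csf1r*, *Cx3cr1*, *P2ry12* and *Tmem119*, and Nav1 KO microglia for *C1qb* and *C1qc*.

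A median of 4 of the 7 rule genes was found per member in every library, and 0 members passed on 1 gene alone. Members held a median 6, 6.5 and 6 rule UMIs, up to 22, 22 and 39. C1q and a receptor or surface gene were found together in 64 of 76, 107 of 116 and 91 of 104 members.

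The C1q and receptor parts of the rule were set against each other, since neither used the genes of the other. Nuclei were first chosen by at least 3 UMIs of the C1q genes with the same limit on neuronal genes, which gave 54, 90 and 66 nuclei. Of these, 81.5% (68.6 to 90.8), 93.3% (86.1 to 97.5) and 89.4% (79.4 to 95.6) held a UMI of a receptor or surface gene, against 1.79%, 1.85% and 1.90% of nuclei with 0 C1q UMIs. Choosing instead by at least 3 UMIs of *Csf1r*, *Cx3cr1*, *P2ry12* and *Tmem119* gave 29, 46 and 68 nuclei. A C1q UMI was found in 93.1% (77.2 to 99.2), 93.5% (82.1 to 98.6) and 91.2% (81.8 to 96.7) of these, against 2.48%, 2.51% and 2.78% of nuclei with 0 receptor UMIs. In each library most nuclei picked by either part thus held a UMI of the other, with intervals that overlap between libraries. Both parts belong to the rule that chose the members. These shares describe how the rule genes go together and test nothing outside the rule.

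Around the threshold the 15 identity genes described below moved with the number of rule UMIs. Nuclei just outside, with 2 rule UMIs, numbered 44, 18 and 30, and their summed identity genes stood at 1001, 763 and 902 CPM. Nuclei just inside, with 3 rule UMIs, numbered 17, 14 and 15 and stood at 2431, 2645 and 1802 CPM. An identity UMI was found in 52.3%, 44.4% and 56.7% of the nuclei with 2 rule UMIs and in 88.2%, 92.9% and 80.0% of those with 3. Members with 5 or more rule UMIs stood at 3762, 4890 and 4917 CPM, and each of them held an identity UMI. Members with 4 rule UMIs, 12, 15 and 12 nuclei, stood at 2285, 2111 and 5719 CPM, so the level did not rise at every step. In nuclei with 0 rule UMIs it was 42.5 to 49.1 CPM.

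**Figure D1:**
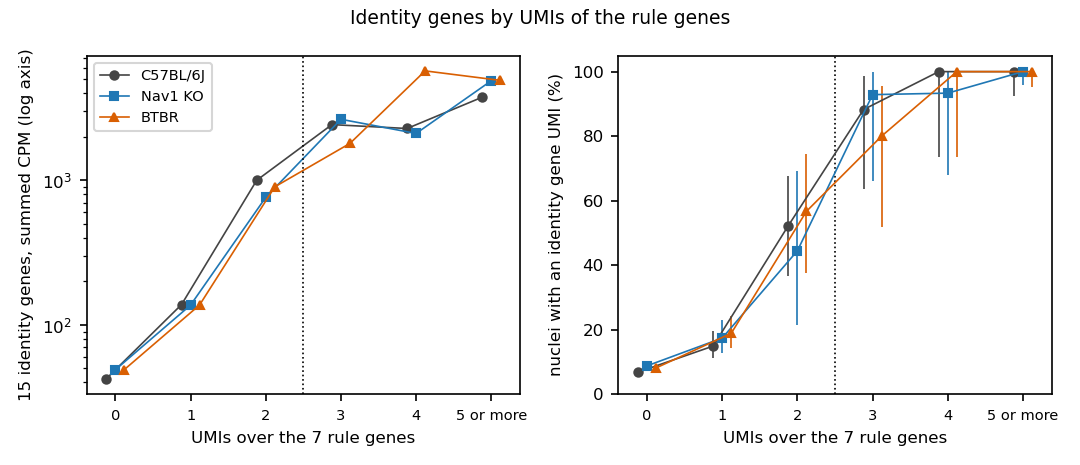
Summed CPM of the 15 identity genes (left, log axis) and percent of nuclei with a UMI of any of them, with exact 95% intervals (right), against the number of UMIs of the 7 rule genes, for nuclei with at most 1 UMI of *Slc17a7*, *Gad1* and *Gad2* in each library. The dotted line is the threshold of 3 UMIs, where the share with an identity UMI is 80.0% to 92.9%, up from 44.4% to 56.7% at 2 UMIs.

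Identity genes that the rule did not count were high in the members. All 15 genes of this list were at least 2-fold higher in microglia than in all other nuclei of the same library in each of the 3 libraries, where 4.78% of 15604 genes were (16.3%, 18.2% and 16.9% of genes in the libraries taken alone, with 29.8%, 26.8% and 27.8% at most 0.5-fold). Their median ratio was 72.7, 110.1 and 74.4 in the C57BL/6J, Nav1 KO and BTBR libraries, against 0.913, 0.942 and 0.928 over all genes compared. Members were chosen by genes of the same cell type, so these ratios describe the nuclei and carry no test. A UMI of at least 1 identity gene was found in 97.4%, 98.3% and 97.1% of members.

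*Ctss* (ENSMUSG00000038642, chr3:95526786-95556403, mm10), the lysosomal protease cathepsin S whose promoter is printed above, had 39, 114 and 101 counts in the microglia of C57BL/6J, Nav1 KO and BTBR. This was 269.7 CPM (192 to 369), 468 CPM (386 to 562) and 524 CPM (427 to 637), against 4.15, 4.99 and 6.83 CPM in all other nuclei. C57BL/6J microglia were the lowest, and their interval met neither of the others. After every nucleus was thinned at random to 500 UMIs, *Ctss* was found in 25.0% (15.8 to 36.3), 29.3% (21.2 to 38.5) and 40.4% (30.9 to 50.5) of members, with overlapping intervals, and 0 members were left out as shallower. In neuronal nuclei (median 3512, 4279 and 3692 UMIs), thinned the same way, it was found in 0.0824%, 0.151% and 0.1999%, and unthinned shares were 38.2%, 52.6% and 59.6% of members.

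Other identity genes differed in which library was lowest. *Siglech*, a sialic acid binding lectin, stood at 339, 435 and 415 CPM and after thinning was in 19.7%, 20.7% and 26.9% of members against 0.0550%, 0.0188% and 0.0727% of neuronal nuclei. *Ly86*, which partners a Toll-like receptor homolog, stood at 304, 443 and 462 CPM, and *Selplg*, a ligand of selectins, at 235, 263 and 394 CPM. *Siglech*, *Ly86* and *Selplg* were lowest in the C57BL/6J library. *Sall1*, a zinc finger factor of microglial identity, went the other way, with 124.5, 86.2 and 67.5 CPM from 18, 21 and 13 counts, and its levels in other nuclei were 2.52, 7.39 and 6.65 CPM. *Fcrls*, an Fc receptor-like gene (249, 238 and 156 CPM), and the integrin chain *Itgam* (124.5, 115 and 77.8 CPM) were likewise highest in C57BL/6J, and the receptor *Gpr34* (194, 189 and 197 CPM) was close in all 3 libraries. *Aif1*, which encodes the widely stained protein Iba1, was close to the detection limit with 4, 9 and 5 counts.

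**Figure D2:**
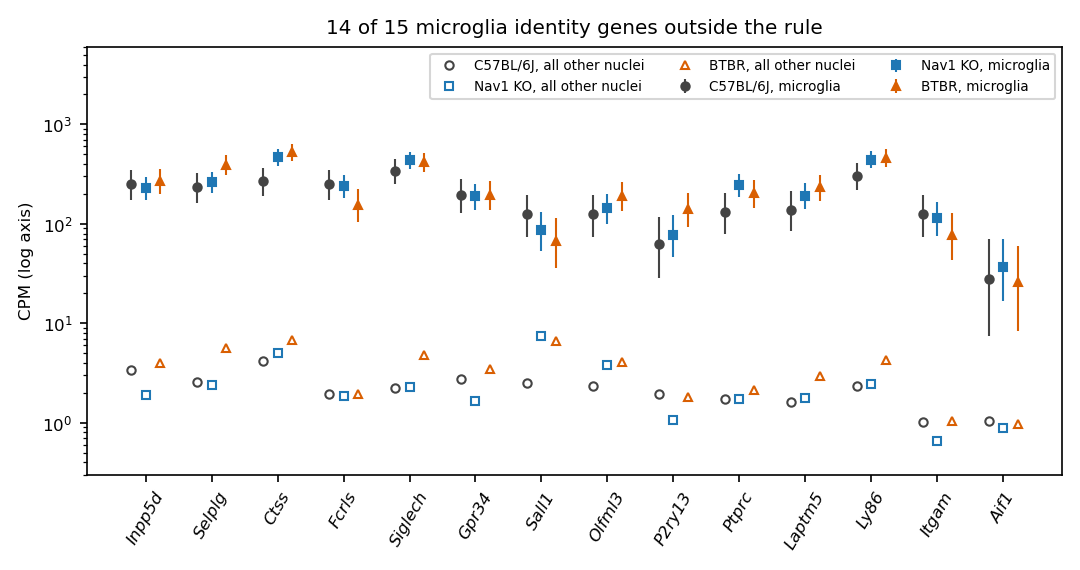
CPM (log axis) of 14 of the 15 identity genes outside the rule in microglia (filled symbols, with exact 95% Poisson intervals) and in all other nuclei (open symbols) of the C57BL/6J, Nav1 KO and BTBR libraries. Every filled symbol lies above the open symbols of its gene, with *Ctss* at 269.7 to 524 CPM and *Aif1* at 26.0 to 36.9 CPM.

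Ranked by ratio, the genes that most set the members apart were of myeloid cells. Microglia genes chose the members, and a gene had to be in at least 20% of them, so the ranking is a description. Among 1014 genes found in at least 20% of members and outside the rule, the 15 with the highest ratio of microglia to all other nuclei (5 CPM added to both) included *Ly86*, *Siglech*, *Cyth4*, *Ctss*, *Fyb*, *Arhgap45*, *Selplg*, *Cd37*, *Fcrls*, *Inpp5d*, *Cd84*, *Ptprc*, *Trem2* and *Laptm5*. *Cyth4*, an exchange factor for small GTPases, stood at 346, 369 and 420.3 CPM in the 3 libraries, against 3.32, 3.69 and 3.96 CPM in other nuclei. *Fyb*, an adaptor of immune cell adhesion, stood at 194, 328 and 353 CPM, and the GTPase activator *Arhgap45* at 179.8, 242 and 306 CPM. The tetraspanin *Cd37* stood at 124.5, 267 and 374 CPM. *Fyb*, *Arhgap45* and *Cd37* were lowest in C57BL/6J microglia and highest in BTBR.

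Of 10 transcription factors of the myeloid lineage, 6 of the 7 with enough counts were at least 2-fold higher in C57BL/6J microglia than in other nuclei, 8 of 9 in the Nav1 KO library and 9 of 10 in BTBR. Over all genes compared the shares were 16.3%, 18.2% and 16.9%, and these also stand beside the 2-fold counts of the lists below. *Irf8*, an interferon regulatory factor that microglia need, stood at 159, 148 and 259.5 CPM, and *Maf*, a factor of macrophages, at 401, 353 and 436 CPM, against 55.9, 52.5 and 60.7 CPM elsewhere. *Runx1*, which acts in blood and microglia development, had 8, 22 and 9 counts, and *Ikzf1*, a lymphoid and myeloid zinc finger factor, had 10, 13 and 18. *Spi1*, which encodes PU.1, was seldom caught, with 0 of 144628 counts in C57BL/6J members, 12 counts in the Nav1 KO library and 7 in BTBR. The exception was *Mef2c*, also a neuronal factor, at 1556, 1104 and 1131 CPM in microglia and 1599, 1395 and 1188 CPM in all other nuclei.

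Of 13 genes of receptor and ITAM signaling, all those with enough counts were at least 2-fold higher in microglia, 11 of 11, 12 of 12 and 13 of 13. *Trem2*, a lipid-sensing receptor, stood at 242, 205 and 228 CPM. Its adaptor *Tyrobp* had 8, 38 and 25 counts (55.3, 156 and 129.7 CPM), and the Fc receptor chain *Fcer1g* 20, 51 and 33 counts (138, 209 and 171 CPM). *Mertk*, a receptor for uptake of dying cells, stood at 166, 197 and 202 CPM. *Trem2* and *Mertk* differed little between libraries, and *Tyrobp* was lowest in C57BL/6J.

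TGF-beta keeps microglia in their resting state, and 4 of 5 genes of that pathway were at least 2-fold higher in microglia in each library. Its receptor *Tgfbr1* stood at 318, 398 and 519 CPM, against 10.5, 15.6 and 18.3 CPM in other nuclei. The ligand *Tgfb1* stood at 83.0, 57.4 and 57.1 CPM, and *Smad3*, a signal transducer found in many cells, had 4, 4 and 1 counts. Among 5 genes of purinergic signaling, 3 of the 4 with enough counts passed 2-fold in each library. *P2ry6*, a UDP receptor tied to phagocytosis, stood at 110.6, 180.5 and 197 CPM, and *Entpd1*, which breaks down extracellular ATP, at 96.8, 98.5 and 72.7 CPM. *P2ry13*, an ADP receptor counted among the identity genes, stood at 62.2, 78.0 and 140.1 CPM. The ATP-gated channel *P2rx4* was the exception, at 96.8, 61.5 and 72.7 CPM against 51.4, 49.0 and 53.5 CPM elsewhere.

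Complement beyond C1q was thin. *C3*, the central component, and *Cfb*, of the alternative pathway, had 0 counts in the microglia of all 3 libraries, which allows up to 20.7, 12.3 and 15.6 CPM (3 counts of each library's total). *C4b*, of the classical pathway, had 6, 25 and 12 counts. The integrin chain *Itgb2*, part of complement receptor 3, had 5, 11 and 7 counts. Of the complement genes with enough counts, 3 of 3, 4 of 5 and 3 of 4 were at least 2-fold higher in microglia than in other nuclei.

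None of the ligands *Csf1*, *Il34* and *Cx3cl1*, which act on microglia, was 2-fold higher in microglia than in other nuclei. *Csf1* had 3, 2 and 2 counts and *Il34* 1, 4 and 6 counts, and *Cx3cl1*, the fractalkine ligand of neurons, stood at 96.8, 69.7 and 62.3 CPM against 84.5, 86.4 and 90.3 CPM in other nuclei. Among the partners, the inhibitory receptor *Sirpa* stood at 214, 299.5 and 233.5 CPM, and its ligand *Cd47* at 207, 234 and 187 CPM, near its level in other nuclei (225, 253 and 237 CPM). *Apoe*, a lipid carrier that astrocytes make in large amounts and microglia raise on activation, had 207, 783 and 393 counts. Of the 9 genes of this list, 3, 4 and 2 passed 2-fold in C57BL/6J, Nav1 KO and BTBR, where 16.3%, 18.2% and 16.9% of all genes compared did. No result was read from these counts.

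Several genes that mark activated microglia were not found, while lysosomal genes of the same list were. *Cst7*, *Gpnmb*, *Lgals3*, *Ccl3* and *Il1b* had 0 counts in all 3 libraries. *Itgax* had 1, 0 and 0 counts, *Spp1* 0, 1 and 0, *Tnf* 0, 2 and 1, and *Ccl4* 0, 2 and 1, and the *Itgax* count and the BTBR *Tnf* count are not in the sums, which leave out genes found in under 3 nuclei of a library. At this depth a level under the limit of 3 counts given above was not detectable. *Ctsd*, the protease cathepsin D, stood at 525.5, 599 and 794 CPM, *Lgmn*, the protease legumain, at 318, 316 and 425.5 CPM, and *Cd68*, a lysosomal membrane protein, at 69.1, 107 and 104 CPM. Of 17 genes of the list in the files, 6, 7 and 6 of the 10 with enough counts were at least 2-fold higher in microglia.

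Interferon response genes had 7, 38 and 7 counts over 7 genes, of which *Ifitm3*, a membrane protein against virus entry, had 0, 11 and 1. Nav1 KO microglia were the highest, with 155.9 CPM against 48.4 and 36.3 CPM, its summed CPM was 3.22 times (1.42 to 8.55) that of C57BL/6J, and 24 of its 38 counts were in members with 3000 or more UMIs. The same list was also highest in Nav1 KO in astrocyte nuclei (67.1, 133 and 63.8 CPM), oligodendrocyte nuclei (63.5, 111 and 52.0 CPM) and endothelial nuclei (245, 554 and 408 CPM), and endothelial genes in the members had 2, 19 and 8 counts. Their part in the result was not tested. Over other nuclei, 2, 6 and 1 of the 7 interferon genes were at least 2-fold higher, where 16.3%, 18.2% and 16.9% of all genes compared were. No result was read from these counts. MHC class II genes, which present antigen, had 9, 11 and 46 counts over *H2-Aa*, *H2-Ab1*, *H2-Eb1* and *Cd74*. These sat in 2, 4 and 4 nuclei. BTBR was the highest at 238.7 CPM against 62.2 and 45.1 CPM, and a pair of its nuclei held 23 and 21 of its 46 counts. Immediate early genes had 36, 67 and 72 counts over 11 genes, and the proliferation genes *Mki67*, *Top2a*, *Cenpf* and *Hmgb2* had 6, 11 and 6 counts in all.

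Border macrophages of the meninges and vessels share C1q and *Csf1r* with microglia, and a few members held their genes. Members with at least 2 UMIs over 10 border macrophage genes numbered 2 in C57BL/6J, 6 in the Nav1 KO library and 4 in BTBR. In those nuclei *Pf4*, a chemokine of border macrophages, had 0, 8 and 3 counts and the mannose receptor *Mrc1* 0, 5 and 4, which the choice of nuclei used. *P2ry12* and *Tmem119*, which are rule genes and so also part of how members were chosen, together had 1, 0 and 1 counts there and 61, 110 and 141 in the other members. With so few nuclei and counts these values are a description, and no difference between candidates and other members was read from them. The scavenger receptor *Stab1* was the most abundant gene of the list (12, 31 and 18 counts), the other members held 8, 20 and 11 of its counts, and in the C57BL/6J candidates it was the only gene of the list found. These candidates carried 8, 6 and 23 of the MHC class II counts.

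Markers of other cells were measured in the members as whole lists, and their part in the results was not tested. The 8 neuron genes summed to 2932, 2064 and 2060 CPM in microglia, below all other nuclei (4746, 4371 and 4532 CPM), and 0 of the 8 were 2-fold higher. This was above their sum in astrocyte nuclei (1490.5, 1374 and 1475 CPM) and oligodendrocyte nuclei (1869.8, 1459 and 1625 CPM), which were chosen under the same limit on neuronal genes. Their most abundant gene was *Syt1* in C57BL/6J and BTBR microglia (954 and 633 CPM) and *Grin2b* in Nav1 KO (611 CPM). The 7 oligodendrocyte genes summed to 1224, 907 and 970.4 CPM, against 359, 298 and 319 CPM in all other nuclei, with *Mbp*, a myelin protein, at 297, 193 and 498 CPM. The 6 astrocyte genes summed to 339, 866 and 1858 CPM, led by *Slc1a3*, of which more below. Genes of other leukocytes, among them lymphocytes, neutrophils and monocytes, had 4, 3 and 3 counts over 14 genes. Of these counts the monocyte receptor *Ccr2* had 3, 0 and 1, and *Cd3e*, *Ms4a1* and *S100a8* were at 0 in all 3 libraries. This leaves out 1 *Cd79b* count in C57BL/6J and 2 *Nkg7* counts in Nav1 KO that the same filter removed. Endothelial genes had 2, 19 and 8 counts over 5 genes, with *Flt1* and *Cldn5* at 0 in C57BL/6J and BTBR, mural cell genes 13, 47 and 25 over 5 genes, led by *Vtn* or *Pdgfrb*, and meningeal fibroblast genes 14, 72 and 22 over 4 genes, led by *Ranbp3l*. Oligodendrocyte precursor genes had 31, 23 and 44 counts over 4 genes, led by *Pdgfra* (12, 7 and 11 counts), *Vcan* (11, 8 and 12) and, in BTBR, *Cspg4* (6, 4 and 13). Nav1 KO was the highest for endothelial, mural and meningeal genes, and BTBR for astrocyte genes.

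Identity genes made up a smaller part of the deeper members. Members with under 1000 UMIs, 34, 46 and 56 nuclei, had identity genes at 9330.3, 11921 and 12586 CPM and neuron genes at 1368, 1144 and 1306 CPM. Members with 3000 or more UMIs, 15, 24 and 19 nuclei, had identity genes at 1169, 1578 and 1435 CPM and neuron genes at 3804, 2395 and 2488 CPM. These few nuclei held 46.7%, 51.2% and 50.3% of all member counts, and 0%, 16.7% and 31.6% of them were among the top 10% of Scrublet scores. CPM over all members gives these nuclei weight by their counts. Nuclei with at least 3 rule UMIs but more than 1 UMI of *Slc17a7*, *Gad1* and *Gad2*, which the rule left out, numbered 50, 97 and 190, had medians of 6414.5, 8414 and 9484 UMIs and identity genes at 662, 735 and 663 CPM. A floor of 3 rule UMIs asks for a higher rule gene CPM in a shallow nucleus than in a deep one, so the fall of the rule genes with depth is set by the choice of members. The plot by depth shows rule and identity genes falling and neuron genes rising with depth in each library, and *Slc1a3* falling with depth in BTBR alone.

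**Figure D3:**
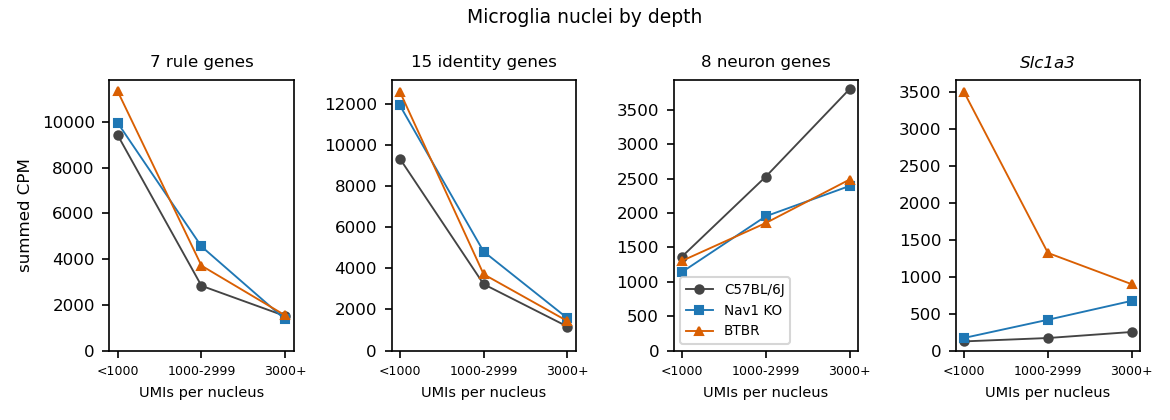
Summed CPM of the 7 rule genes, the 15 identity genes, the 8 neuron genes and *Slc1a3* in microglia with under 1000, 1000 to under 3000, and 3000 or more UMIs, with 1 line per library. Identity genes fell from 9330.3 to 12586 CPM in the shallowest members to 1169 to 1578 CPM in the deepest, while *Slc1a3* fell from 3492 to 898 CPM in BTBR and rose from 124 to 252 CPM in C57BL/6J.

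Microglia were 0.520% (0.410 to 0.650) of kept nuclei in C57BL/6J, 0.825% (0.682 to 0.989) in Nav1 KO and 0.704% (0.575 to 0.852) in BTBR. The share was 1.59 times (1.18 to 2.15) that of C57BL/6J in Nav1 KO and 1.35 times (0.998 to 1.85) in BTBR. Set against the astrocyte, oligodendrocyte and endothelial nuclei of the same library (570, 1120 and 820), there were 0.133, 0.104 and 0.127 microglia per such nucleus, which is 0.777 times (0.577 to 1.05) and 0.951 times (0.701 to 1.30) the C57BL/6J value. Of the nuclei that passed the limit on neuronal genes (8265, 6168 and 6386), microglia were 0.920% (0.725 to 1.15), 1.88% (1.56 to 2.25) and 1.63% (1.33 to 1.97), with C57BL/6J the lowest and its interval apart from the others. The direction thus depended on the denominator, and the sort described for C57BL/6J and Nav1 KO partly set the share of nuclei without NeuN. With members of a second class left out the BTBR share fell below C57BL/6J, to 0.701 times its value, by a rule that counts *Slc1a3*, and it was 1.27 times when *Slc1a3* was not counted.

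The knockout library was then set against C57BL/6J within microglia, the comparison of the *Nav1* deletion with its background strain. *Nav1* (chr1:135434580-135607295, mm10), a neuron navigator, had 49, 38 and 29 counts in the microglia of C57BL/6J, Nav1 KO and BTBR, 339, 156 and 150.5 CPM, and stood at 345, 265 and 146 CPM in all other nuclei. The files give 1 count per gene from a 3′ assay and not where in *Nav1* the reads lie, and reads outside the deleted part of the first exon check nothing about the label. Both comparisons below use the same C57BL/6J library, and genes needed at least 30 counts over both libraries. The genes named below as highest and lowest were picked by their ratios among all genes compared. Their intervals are not adjusted for that choice, so these ratios are a description.

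In Nav1 KO microglia 133 of 2287 genes were at least 2-fold higher than in C57BL/6J (5.82%) and 153 were at most 0.5-fold (6.69%), 12.5% in all, with a median ratio of 0.923. Which direction had more genes depended on the setting, with 166 higher (7.26%) and 118 lower (5.16%) when the 10 most abundant genes were left out of the totals, and 254 higher (2.87%) and 190 lower (2.14%) of 8865 with no limit on neuronal genes. None of the 13 identity genes with enough counts passed 2-fold in either direction, their median ratio was 1.15, and the summed CPM of the whole list was 1.27 times (1.14 to 1.42) that of C57BL/6J. *Ctss* was 1.73 times (1.20 to 2.56) and *Ptprc*, the leukocyte phosphatase CD45, 1.87 times (1.10 to 3.33) the C57BL/6J level. *Tyrobp*, with 38 counts against 8, was at 2.82 times (1.30 to 6.99), and at 1.14 times with no limit on neuronal genes. *Trem2*, its receptor partner, was at 0.848 (0.539 to 1.35) and *Mef2c* at 0.709 (0.592 to 0.851).

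*Apoe* (chr7:19696109-19699188, mm10) was the most abundant gene of the ligand list. It stood at 1431 CPM (1243 to 1640.1) in C57BL/6J microglia, 3212 CPM (2991 to 3445) in the Nav1 KO library and 2039 CPM (1843 to 2251) in BTBR, and the 3 intervals did not overlap. In all other nuclei it stood at 361, 786 and 709 CPM, so C57BL/6J was the lowest there too. With members of a second class left out, the BTBR ratio to C57BL/6J went from 1.43 to 1.77 and that of Nav1 KO was 2.97, while by a rule without *Slc1a3* they were 1.01 and 2.12. The microglial ratio of Nav1 KO over C57BL/6J was 2.24 (1.92 to 2.63), and 2.54 (2.06 to 3.17) in members with under 3000 UMIs, but 1.53 with no limit on neuronal genes. After thinning to 500 UMIs *Apoe* was found in 31.6%, 50.0% and 36.5% of microglia and in 7.03%, 10.3% and 9.50% of neuronal nuclei.

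The 5 genes with the highest Nav1 KO ratio were *Ccn2*, *Ptgds*, *Fjx1*, *Apod* and *Pla2g7*. *Ccn2*, a secreted matrix-associated protein, had 38 counts in Nav1 KO microglia against 2 (ratio 11.3, 2.91 to 96.5), found in 12 and 2 nuclei, and 3 counts in BTBR. *Ptgds*, a prostaglandin synthase abundant in meninges and oligodendrocytes, had 478 counts against 35 (ratio 8.10, 5.75 to 11.8) and 179 in BTBR, and in all other nuclei it was 3.76 times higher. *Apod*, a lipid-binding protein of glia and fibroblasts, had 121 counts against 11 (6.53, 3.52 to 13.4), with a ratio of 3.58 in other nuclei. In astrocyte nuclei *Ptgds* stood at 1699, 4191 and 3563 CPM and *Apod* at 163, 628 and 323 CPM, so astrocyte nuclei were highest in Nav1 KO too. In oligodendrocyte nuclei *Ptgds* stood at 1146, 2345 and 3087 CPM, highest in BTBR, and *Apod* at 567, 1001 and 520 CPM, highest in Nav1 KO. In Nav1 KO members the summed CPM of meningeal fibroblast genes was 3.05 times (1.71 to 5.86) the C57BL/6J value. That of mural cell genes was 2.145 times (1.14 to 4.32), and the part of either list in these ratios was not tested. With members of a second class left out the *Ptgds* ratio was 5.06 (10.3 by a rule without *Slc1a3*) and the *Apod* ratio 12.4 (6.79), and with the top 10% of Scrublet scores removed they were 9.24 and 6.74. Single Nav1 KO members held 135 of the 478 *Ptgds* counts, 29 of the 121 *Apod* counts and 15 of the 38 *Ccn2* counts. In members with under 3000 UMIs their ratios were 3.21 and 3.65, and that of *Ccn2* was 5.83 from 4 nuclei in Nav1 KO and 2 in C57BL/6J.

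The 5 lowest were *Sh2d5*, *Hook1*, *Erc2*, *C78859* and *Dync1li2*, with ratios from 0.173 to 0.249, and in all other nuclei their ratios were from 0.710 to 0.902. *Erc2* encodes a protein of the presynaptic active zone and *Hook1* a linker to microtubules. Neuron genes were lower in the same direction, with a ratio of summed CPM of 0.704 (0.617 to 0.803) for Nav1 KO over C57BL/6J.

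BTBR microglia were compared with C57BL/6J as a comparison of strains. Here 112 of 2002 genes were at least 2-fold higher (5.59%) and 85 at most 0.5-fold (4.25%), 9.84% in all, with a median ratio of 1.001. With members of a second class left out more genes were lower (51, 6.30%) than higher (47, 5.81%) of 809. By a rule without *Slc1a3* 97 were higher (6.76%) and 74 lower (5.16%) of 1435. Of 14 identity genes with enough counts 1 passed, *P2ry13* at 2.25 (1.03 to 5.44), none was at most 0.5-fold, and the median was 1.49. The summed CPM of all identity genes was 1.34 times (1.196 to 1.502) that of C57BL/6J, and in all other nuclei BTBR was also the highest, with sums of 47.0, 51.7 and 73.9 CPM in the 3 libraries. In BTBR members the summed CPM of neuron genes was 0.703 times (0.611 to 0.808) the C57BL/6J value. That of astrocyte genes was 5.48 times (4.06 to 7.55). The part of these genes in the result was not tested. *Ctss* was 1.94 times (1.33 to 2.89), *Tyrobp* 2.35 times (1.02 to 6.02) and *Cd37*, which was also higher in other nuclei (3.38), 3.002 times (1.77 to 5.35) the C57BL/6J level. With no limit on neuronal genes the BTBR ratios of *Tyrobp* (0.635) and *P2ry13* (0.962) turned below 1.

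*Gcnt1* (ENSMUSG00000038843, chr19:17326141-17372844, mm10), a Golgi enzyme that branches O-linked sugar chains, had the highest ratio. It had 2 counts in C57BL/6J microglia, 8 in the Nav1 KO library and 35 in BTBR, found in 2 of 76, 8 of 116 and 29 of 104 nuclei, and stood at 13.8, 32.8 and 182 CPM. BTBR was the highest, with a ratio to C57BL/6J of 13.1 (3.37 to 113). The gene passed the minimum of 30 counts through its BTBR counts. It was then picked for its ratio, and the interval is not adjusted for either step. In neuronal nuclei it stood at 0.389, 1.80 and 1.85 CPM and in astrocyte nuclei at 4.19, 4.62 and 4.80 CPM, and the libraries were close to each other in astrocytes. In all nuclei other than microglia its BTBR level was 3.67 CPM against 0.882 CPM, a ratio of 4.16 (2.87 to 6.20). In members with under 3000 UMIs the counts were 32 against 1, a ratio of 25.7 (4.30 to 1048). Other alternatives also gave ratios below 13.1, and the range is given in the last section.

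*Gm31243* (ENSMUSG00000104710, chr3:135904344-136167184, mm10), a predicted gene, had 5, 8 and 41 counts in 5, 8 and 33 nuclei. BTBR was the highest at 213 CPM, against 34.6 and 32.8 CPM, with a ratio of 6.15 (2.43 to 19.9) and of 5.63 (2.20 to 18.4) in members with under 3000 UMIs. In neuronal nuclei it stood at 0.714, 0.612 and 1.34 CPM, and it had 0 counts in endothelial nuclei of all 3 libraries. In all nuclei other than microglia its BTBR ratio was 2.86 (1.99 to 4.19). *Tcf7l2*, a Wnt pathway factor of glia, had 4, 42 and 33 counts (27.7, 172 and 171 CPM) and *Gnai2*, a G protein subunit to which P2Y12 couples, 4, 24 and 27 (27.7, 98.5 and 140.1 CPM). For *Tcf7l2* and *Gnai2* the C57BL/6J library was low and the other libraries were close, with BTBR ratios of 6.19 (2.20 to 24.1) and 5.07 (1.77 to 19.9). In all nuclei other than microglia their BTBR ratios were 1.79 and 1.60. With members of a second class left out the microglial *Tcf7l2* ratio was 2.84 (3.41 by a rule without *Slc1a3*) and the *Gnai2* ratio 4.27 (4.72), and with the top 10% of Scrublet scores removed they were 7.06 and 5.30.

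The 5 lowest BTBR ratios were those of *Gabarapl2*, *Fam193a*, *Snapc3*, *Ntng1* and *Galnt1*. *Gabarapl2*, of the autophagy machinery, had 25, 26 and 5 counts, a ratio of 0.150 (0.0449 to 0.399), and was as low in all other BTBR nuclei (0.213). *Galnt1*, which starts O-linked sugar chains, had 24, 22 and 10 counts in microglia (0.313, 0.134 to 0.678), and was lower still in all other nuclei (0.0875). *Ntng1*, a netrin of axons, was low in BTBR microglia with 45, 53 and 18 counts (0.300, 0.164 to 0.529) but higher in all other BTBR nuclei (1.86), and its microglial ratio turned to 2.12 with no limit on neuronal genes. Of its counts, 19 of 45 in C57BL/6J and 29 of 53 in Nav1 KO were in 1 nucleus, against at most 3 in a BTBR nucleus.

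**Figure D4:**
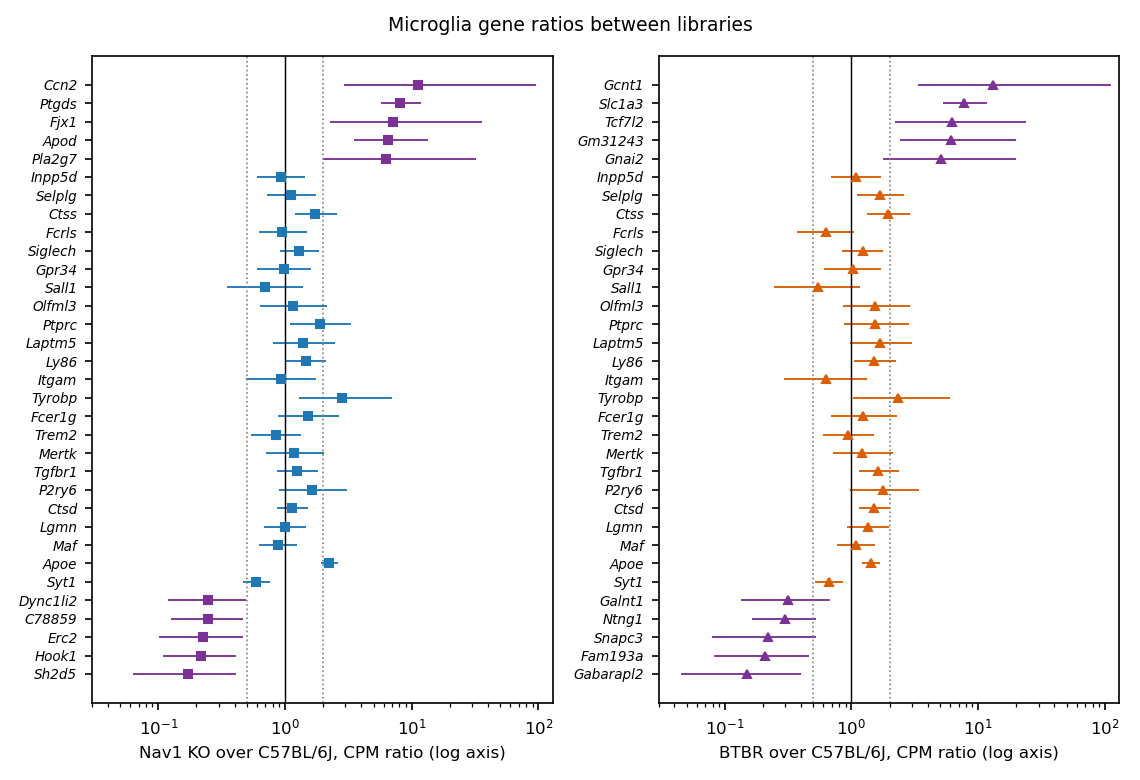
CPM ratio in microglia of Nav1 KO over C57BL/6J (left) and BTBR over C57BL/6J (right) on a log axis, with exact 95% intervals, for the 5 highest and 5 lowest genes of each comparison (purple) and genes of the fixed lists (blue and orange). Dotted lines are at 2 and 0.5, and both panels use the same C57BL/6J library. The purple genes were picked by these ratios, and their intervals are not adjusted for that choice. Most listed genes lie between the dotted lines, with *Apoe* at 2.24 in Nav1 KO and *Tyrobp* at 2.82 in Nav1 KO and 2.35 in BTBR outside, though with no limit on neuronal genes the BTBR ratios of *Tyrobp* and *Ntng1* turned direction (0.635 and 2.12).

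*Slc1a3* (ENSMUSG00000005360, chr15:8634124-8710764, mm10) encodes the glutamate transporter GLAST, best known from astrocytes. It had 29 counts in C57BL/6J microglia, 125 in the Nav1 KO library and 300 in BTBR, which is 200.5 CPM (134 to 288), 513 CPM (427 to 611) and 1557 CPM (1386 to 1743). BTBR microglia were the highest, with a ratio to C57BL/6J of 7.76 (5.30 to 11.8), and that of Nav1 KO was 2.56 (1.70 to 3.98). In all nuclei other than microglia *Slc1a3* was higher in BTBR too, at 132 CPM against 68.9 CPM in C57BL/6J, a ratio of 1.92 (1.83 to 2.01). The BTBR ratio in microglia was lower with no limit on neuronal genes and higher in members with under 3000 UMIs, with values in the last section. The Nav1 KO ratio was under 2 with members of a second class left out (1.77, or 1.66 by a rule without *Slc1a3*), with no limit on neuronal genes (1.75) and with rule genes at 2 of 1000 UMIs (1.89). A UMI was found in 18 of 76 C57BL/6J members (23.7%, 14.7 to 34.8), 43 of 116 Nav1 KO members (37.1%, 28.3 to 46.5) and 83 of 104 BTBR members (79.8%, 70.8 to 87.0), and at least 3 UMIs in 3, 15 and 52. Neuronal nuclei, which should lack it, held a UMI in 4.29%, 6.70% and 6.31% of cases at median depths of 3512, 4279 and 3692 UMIs, against 1392.5, 1209.5 and 955 UMIs in microglia. Neuronal nuclei were those with at least 3 UMIs of *Slc17a7*, *Gad1* and *Gad2* and at most 2 UMIs of the rule genes and of each other class, so a limit on *Slc1a3* is part of their rule.

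Astrocyte nuclei were chosen by a rule that counts *Slc1a3*. Its level there is partly set by that choice, and no likeness between libraries was read from it. In these nuclei *Slc1a3* stood at 1584, 1454 and 1446 CPM, found in 92.9%, 94.1% and 92.3% of them, and in oligodendrocyte nuclei at 59.2, 120 and 97.5 CPM. After thinning to 500 UMIs it was found in 7.89% (2.95 to 16.4), 16.4% (10.2 to 24.4) and 58.7% (48.6 to 68.2) of microglia, against 0.769%, 0.753% and 0.927% of neuronal nuclei. The BTBR interval met neither of the others.

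The sum of the other astrocyte genes was also above C57BL/6J in the microglia of both libraries, though not every gene was. *Aqp4*, *Gja1*, *Aldh1l1*, *Slc7a10* and *Fgfr3* together had 20, 86 and 58 counts, or 138, 353 and 301 CPM, highest in Nav1 KO. Of these the amino acid transporter *Slc7a10*, with 5, 19 and 22 counts, was highest in BTBR (ratio 3.30, 1.22 to 11.2), as was *Aldh1l1* with 1, 0 and 6 counts, and *Fgfr3* stood at 41.5 CPM in both C57BL/6J and BTBR. Per count of the water channel *Aqp4* and the gap junction gene *Gja1* there were 3.62, 2.45 and 13.6 counts of *Slc1a3* in microglia, and 2.39, 1.84 and 1.75 in astrocyte nuclei. Members with 0 counts of all 5 other astrocyte genes numbered 63, 81 and 88, and a *Slc1a3* UMI was found in 15.9% (7.88 to 27.3), 21.0% (12.7 to 31.5) and 77.3% (67.1 to 85.5) of them. Members with under 1000 UMIs gave 8.82% (1.86 to 23.7), 13.04% (4.94 to 26.3) and 78.6% (65.6 to 88.4), and levels of 124, 172 and 3492 CPM. Nuclei with 0 rule UMIs and the same limit on neuronal genes gave 11.3%, 25.0% and 20.2%. The BTBR level was thus as high or higher in the shallow members and in those without other astrocyte counts, and in nuclei with 0 rule UMIs the BTBR share lay between the other libraries.

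**Figure D5:**
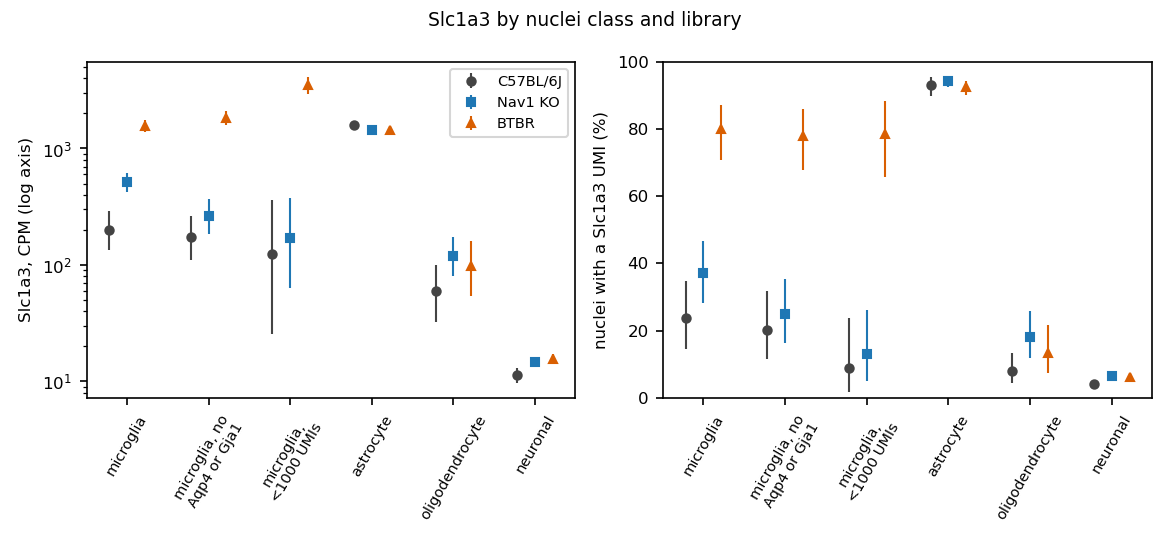
*Slc1a3* in CPM with exact Poisson intervals (left, log axis) and as percent of nuclei with a UMI with exact binomial intervals (right), in microglia, in microglia without *Aqp4* or *Gja1* counts, in microglia with under 1000 UMIs, and in astrocyte, oligodendrocyte and neuronal nuclei of each library. BTBR microglia lie at 77.8% to 79.8% of nuclei, above the other libraries in each microglial subset. Astrocyte nuclei lie at 92.3% to 94.1% in the 3 libraries, which is partly set by their rule, since it counts *Slc1a3*.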

How the data were processed

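Nuclei of mouse prefrontal cortex were profiled by droplet 3′ RNA sequencing with unique molecular identifiers. The authors aligned the reads and made the deposited matrices of whole-number counts per gene and barcode with Cell Ranger 6.0.0 on mm10, 1 matrix per library, which are not normalized. Whether intronic reads and strand were counted is not given in the sources used here. There were 15402, 14623 and 15238 barcodes for C57BL/6J, Nav1 KO and BTBR.

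A gene was kept in a library when 3 or more of its nuclei held it, and a nucleus when it held 200 or more genes and less than 10% mitochondrial counts. No doublets were removed, because the automatic threshold of Scrublet (scanpy 1.11.5) called almost no nuclei, and its top 10% of scores was used as a description. Clusters were not used. Comparison nuclei (astrocyte, oligodendrocyte, endothelial) needed at least 3 UMIs over their own genes under the same limit on neuronal genes, and neuronal nuclei needed at least 3 UMIs of the limiting genes and under 3 of every other class. In droplet data, free RNA gives UMIs in nuclei that do not express a gene, and shares in neuronal nuclei stand for that background. CPM was computed from summed counts. Intervals are exact 95% intervals (Clopper-Pearson for shares, Poisson for CPM, the binomial split for ratios), and a count of 0 was read as a limit of 3 counts. Between libraries a gene needed at least 30 counts over both and was called at a ratio of at least 2 or at most 0.5. The ratio code was tested on simulated data. Python 3.11.15, numpy 2.4.6, scipy 1.17.1, pandas 2.3.3 and matplotlib 3.10.9 were used.

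The named genes were those of the fixed lists, the 15 leading genes found in at least 20% of members, the 5 highest and 5 lowest ratios of each comparison, and *Nav1*. The members and lists were chosen with earlier results of these data known. *Clec7a*, of the activation list, was not analysed here, and some listed genes are not reported here by name, though sums and counts over their lists include them. Alternatives changed the number of rule UMIs, the limit on neuronal genes, members of a second class, depth, filters, totals and the count minimum. Positions are from GENCODE M21 (GRCm38), promoters from RefSeq (GRCm38.p6).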

Additional observations from a re-analysis of the deposited data

How the results depend on the processing

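No paired analysis was possible because each group is 1 library. No value below has a replicate, so the spread between mice is unknown, and depth limited genes under 3 counts. The 15 identity genes kept their 2-fold excess over other nuclei in each library under every alternative run. Some alternatives were chosen after seeing the data, namely members with under 3000 UMIs, rule genes at 2 or more of 1000 UMIs, and members of a second class left out without counting *Slc1a3*. Of 171 values of the main results under alternatives, 57 moved, 1 of them a ratio that crossed 1, and of 839 values of single genes and list medians, 75 moved and 4 reversed. The cause was not tested.

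The share of microglia in C57BL/6J, Nav1 KO and BTBR (0.520%, 0.825% and 0.704%) became 0.321%, 0.619% and 0.521% with at least 5 rule UMIs, 0.369%, 0.662% and 0.447% with 0 UMIs of the neuronal genes, 0.861%, 1.51% and 1.99% with no limit on them, and 0.403%, 0.633% and 0.541% with rule genes at 2 of 1000 UMIs. With at least 2 rule UMIs it was 0.820% in C57BL/6J and 0.907% in BTBR, with members of a second class left out 0.640% in Nav1 KO and 0.311% in BTBR, and with members under 3000 UMIs 0.655% and 0.575%. The Nav1 KO ratio of shares fell to 1.16 with at least 2 rule UMIs, and the BTBR ratio was 2.31 with no limit. With second-class members left out the BTBR ratio crossed 1, from 1.35 to 0.701. Its interval (0.998 to 1.85) held 1, and it was 1.27 without counting *Slc1a3* in that rule.

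Genes at least 2-fold higher in Nav1 KO (133) numbered 80 with 0 UMIs of the neuronal genes, 254 with no limit, 57 under 3000 UMIs, 65 at 2 of 1000 UMIs, 31 at a minimum of 60 counts and 437 at 15. The number of genes tested moved too, and as shares of it these were 5.82%, 6.09%, 2.87%, 6.45%, 7.34%, 3.89% and 8.78%. Those at most 0.5-fold (153) numbered 86, 190, 39, 54, 38 and 468 under the same settings, 251 with at least 2 rule UMIs and 97 with second-class members left out (6.69%, then 6.55%, 2.14%, 4.41%, 6.10%, 4.77%, 9.40%, 8.03% and 7.58%). Genes higher in BTBR (112) numbered 52, 568, 41, 69, 23 and 433 in the order first given and 47 with second-class members left out (5.59%, 8.14%, 5.31%, 5.34%, 9.35%, 3.33%, 9.40% and 5.81% of genes tested), and genes lower (85) numbered 44, 326, 29, 42, 18 and 295, and 51 (4.25%, then 6.89%, 3.05%, 3.78%, 5.69%, 2.60%, 6.41% and 6.30%). *Ctss* was in 18.1% of Nav1 KO and 28.8% of BTBR members at 300 UMIs, and unthinned in 38.2%, 52.6% and 59.6% of the 3 libraries. *Slc1a3* was in 1.32% of C57BL/6J members at 300 UMIs, and unthinned in 23.7%, 37.1% and 79.8%.

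With no limit on neuronal genes 4 ratios reversed: *Lpl* in Nav1 KO to 1.04, and in BTBR *Ntng1* to 2.12, *Tyrobp* to 0.635 and *P2ry13* to 0.962. The BTBR ratio of *Slc1a3* ran from 3.18 with no limit to 14.3 under 3000 UMIs, and was 6.67 with second-class members left out and 9.05 without counting *Slc1a3* in that rule. That of *Gcnt1* ran from 7.74 to 27.8. A ratio had no value where an alternative left the C57BL/6J library at 0 counts, for *Fjx1* under 1 setting and *Pla2g7* under 2.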
